A study of Mus musculus with 6 samples.

Results

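The superoxide dismutases, peroxiredoxins, thioredoxin and catalase were examined as a set of 10 listed genes in tissue on either side of the dorsal aorta of the mouse embryo. Members were taken as array rows whose platform gene symbol was on the list. Of the 10 symbols 8 were found (Sod1, Sod2, Prdx1, Prdx2, Prdx3, Prdx4, Txn1 and Cat), among 24675 genes in all. Prdx5 and Prdx6 had no row under their symbol in the annotation used and were not analysed here. The list was drawn up with ventral against dorsal results of these arrays known, so the members were in part selected on these same log2 levels and ventral minus dorsal differences, which are given as a description. Counts of members from the fit over all genes are printed once, beside the share of all genes, and nothing is read from them.

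Both groups were tissue of C57Bl/6 embryos at embryonic day 10.5, with no mutation or treatment named. Dorsal tissue was the strip above the aortic roof, up to the notochord, and ventral tissue lay beneath the vessel. Both were cut by laser from 20 μm sections of the same unfixed, frozen embryos, and each group had 3 arrays numbered 1 to 3 as biological replicates. A sample entered amplification with 200 to 1000 pg of RNA, and the embryos or sections behind each array are not given in the sources used here.

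Superoxide leaks from the respiratory chain and is released by NADPH oxidases. Superoxide dismutases turn it into hydrogen peroxide, which catalase breaks down in peroxisomes and peroxiredoxins reduce through a reactive cysteine. Thioredoxin, recharged by thioredoxin reductase and NADPH, returns oxidised peroxiredoxins to their active state. Peroxide is also a signal in cells, and the balance of its production and removal is known to matter for haematopoietic stem cells. Red blood cells, which fill the embryonic aorta, are rich in catalase, in the cytosolic superoxide dismutase Sod1 and in the peroxiredoxin Prdx2.

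A motif resembling the antioxidant response element, which binds the stress regulator Nrf2, stood in the promoters of Prdx1 and Sod1. The 250 bases before the transcription start are shown for these genes and for Txn1, since Prdx1 was the member that differed most between regions, Sod1 the steadiest over the arrays by its range, and Txn1 the one whose sign was the same in all 3 same-numbered pairs. Sequences are from RefSeq on GRCm38.p6 and run 5′ to 3′ on the strand of the gene. Capitals mark matches to TGACNNNGC on either strand. Prdx1 lies on the plus strand at chr4:116685349-116685598, Sod1 on the plus strand at chr16:90220512-90220761, and Txn1 on the minus strand at chr4:57956412-57956661.
Prdx1: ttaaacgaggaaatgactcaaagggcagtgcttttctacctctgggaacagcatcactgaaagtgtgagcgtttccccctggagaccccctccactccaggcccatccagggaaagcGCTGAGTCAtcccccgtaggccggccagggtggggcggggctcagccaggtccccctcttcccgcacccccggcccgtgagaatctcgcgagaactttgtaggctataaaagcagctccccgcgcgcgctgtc
Sod1: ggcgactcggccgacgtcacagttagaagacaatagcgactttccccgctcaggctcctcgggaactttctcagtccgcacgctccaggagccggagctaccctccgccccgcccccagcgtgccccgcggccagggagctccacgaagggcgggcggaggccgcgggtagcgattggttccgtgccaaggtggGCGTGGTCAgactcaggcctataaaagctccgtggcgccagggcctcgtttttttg
Txn1: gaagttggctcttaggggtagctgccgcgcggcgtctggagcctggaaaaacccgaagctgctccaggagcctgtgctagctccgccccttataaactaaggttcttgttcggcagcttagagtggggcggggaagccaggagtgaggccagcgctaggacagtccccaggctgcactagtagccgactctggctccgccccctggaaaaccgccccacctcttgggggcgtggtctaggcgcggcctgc

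The match read TGACTCAGC in Prdx1, 125 to 133 bases before the start, and TGACCACGC in Sod1, 48 to 56 bases before it, both on the strand opposite to the gene. The motif was found in 2 of 8 members and in 10.2% of all 32851 promoters over the same 250 bases. The TATA motif TATAAA was found in 4 members (Sod1, Prdx1, Prdx3 and Txn1) and in 12.4% of all promoters. In Sod1 it began 37 bases and in Prdx1 29 bases before the start. The match in Txn1 was farther off, 155 to 160 bases before it. In Prdx3 it lay on the strand opposite to the gene, 234 to 239 bases before the start. The GC box GGGCGG was found in 7 of 8 members, all but Prdx2, and in 32.7% of all promoters. Sod1, Sod2 and Txn1 had 4 matches each, and in Sod1 neighbouring matches overlapped. Both strands were searched for each motif. The members' windows had 55.6% (Prdx3) to 69.2% (Prdx2) G and C, against a median of 52.4% over all promoters.

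Signals were summarised by RMA on a log2 scale, on which a difference of 1 is a doubling. RMA corrects background and brings arrays to a common distribution. Signals of different probe sets also depend on the probes, so levels are compared within a gene only. Array medians lay between 3.20 and 3.28, and a signal near them was not shown to be above background. Sod2, Prdx2, Prdx3 and Cat stayed under 5 on all 6 arrays. In bulk tissue, fewer cells of a type and less RNA per cell cannot be told apart.

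**Figure D1:**
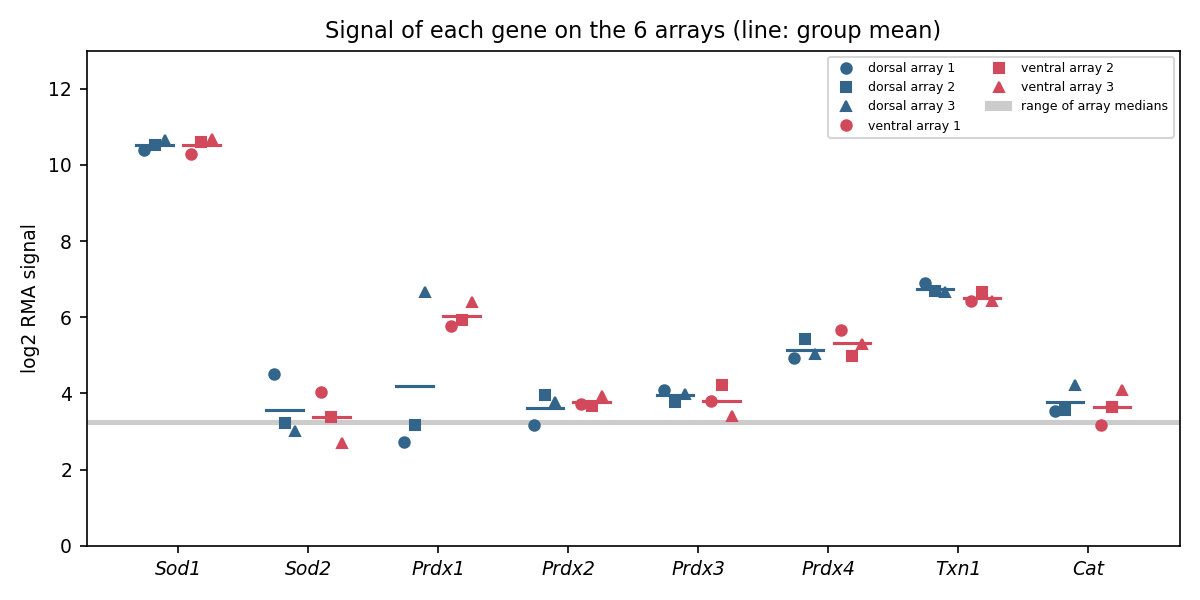
Log2 RMA signal (y axis) of the 8 genes on the 3 dorsal and 3 ventral arrays; symbols give the array number, short lines the group means and the grey band the range of array medians. Sod1 lay between 10.30 and 10.69 on all arrays, while Prdx1 was at 2.72 and 3.17 on dorsal arrays 1 and 2 and between 5.76 and 6.67 on the other 4.

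Sod1, the copper-zinc superoxide dismutase of the cytosol, had the same mean signal on both sides of the aorta to within 0.01. It was at 10.40, 10.53 and 10.67 on dorsal arrays 1, 2 and 3 and at 10.30, 10.61 and 10.69 on the ventral arrays. The groups overlapped fully. Its log2 fold change, ventral minus dorsal, was 0.00 ± 0.17 (SE, n = 3 per region), with a 95% interval from -0.41 to 0.42. An interval of this width leaves room for a level up to 1.34 times as high in ventral or 1.33 times as high in dorsal tissue.

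Sod2, the manganese superoxide dismutase of mitochondria, varied more between array numbers than between regions. Dorsal arrays 1, 2 and 3 had 4.50, 3.22 and 3.01, and the ventral arrays 4.02, 3.37 and 2.70. The arrays numbered 1 were the highest in both regions and those numbered 3 the lowest. The log2 fold change was -0.21 ± 0.20, with an interval from -0.70 to 0.28. Its direction turned when dorsal array 1 (0.26) or ventral array 3 (0.13) was left out of a fit without the block on array number.

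Prdx1, a cytosolic peroxiredoxin induced by oxidative stress, had the largest difference between regions among the 8 genes. Dorsal arrays 1, 2 and 3 had 2.72, 3.17 and 6.67, and the ventral arrays 5.76, 5.92 and 6.41. Dorsal arrays 1 and 2 were low, below the array medians, while dorsal array 3 was above every ventral array, so the groups overlapped. The dorsal mean was 4.19 ± 2.16 and the ventral mean 6.03 ± 0.34 (SD over 3 arrays). The log2 fold change was 1.84 ± 0.64 (SE), with a 95% interval from 0.25 to 3.43 when the array number was a block. Without the block it was 1.84 ± 0.93, with an interval from -0.33 to 4.02 that spans 0, and no label ties an array number to a single embryo. The ventral mean was 3.59-fold higher. Within same-numbered arrays the differences were 3.04, 2.75 and -0.26.

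The value for Prdx1 depended on single dorsal arrays. In fits without the block it was 3.08 without dorsal array 3, 1.11 without dorsal array 1 and 1.33 without dorsal array 2. A dorsal SD at least as large as that of Prdx1 was held by 0.255% of all genes, and 0.357% had a difference of its size or more in either direction. Prdx1 was singled out by these same values, so the shares describe it and test nothing. Dorsal arrays also varied more in general. Over all genes the median SD was 0.26 in dorsal and 0.18 in ventral tissue, and 66.0% of genes had the larger SD in dorsal tissue. The low values of Prdx1 on dorsal arrays 1 and 2 are bounded by background, so the true distance between the arrays may be larger than the signal shows. Whether these low values reflect the level in the tissue was not tested. RefSeq also holds the pseudogenes Prdx1-ps, Prdx2-ps1, Prdx2-ps2 and Txn-ps1, and whether such copies add to these signals was not tested.

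Prdx2, the peroxiredoxin of red cells and neurons, was at 3.17, 3.95 and 3.76 on the dorsal arrays and at 3.73, 3.67 and 3.93 on the ventral arrays. The ventral values lay inside the dorsal range. The log2 fold change was 0.15 ± 0.22, with an interval from -0.39 to 0.69, and it turned to -0.08 without dorsal array 1 (no block) and to -0.06 without both arrays numbered 1. Prdx3, the peroxiredoxin of mitochondria, was at 4.10, 3.77 and 3.99 in dorsal and at 3.80, 4.22 and 3.41 in ventral tissue. Here the dorsal values lay inside the ventral range, with a log2 fold change of -0.14 ± 0.25 and an interval from -0.75 to 0.47. It turned to 0.06 without ventral array 3 (no block) and to 0.08 without both arrays numbered 3.

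Prdx4, the peroxiredoxin of the endoplasmic reticulum, was at 4.94, 5.44 and 5.03 on the dorsal and at 5.68, 4.97 and 5.30 on the ventral arrays. The groups overlapped, and the pair numbered 2 differed in the direction opposite to the other pairs. The log2 fold change was 0.18 ± 0.26, with an interval from -0.47 to 0.83, and it turned to -0.09 without both arrays numbered 1. None of the 3 peroxiredoxins Prdx2, Prdx3 and Prdx4 thus showed the separation of arrays seen for Prdx1.

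Txn1, the cytosolic thioredoxin that reduces the peroxiredoxins, was lower on the ventral array of every same-numbered pair. It was at 6.90, 6.70 and 6.66 in dorsal and at 6.42, 6.67 and 6.42 in ventral tissue. Ventral array 2 lay just above dorsal array 3, so the groups overlapped narrowly. The pair differences were -0.48, -0.03 and -0.24, and the log2 fold change was -0.25 ± 0.18, with an interval from -0.70 to 0.20. Of the 8 genes 1 was higher in dorsal tissue in all 3 pairs, against 21.8% of all genes, and 0 were higher in ventral tissue in all 3 pairs, against 13.3%.

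Cat, the catalase of peroxisomes, was at 3.54, 3.57 and 4.23 on the dorsal and at 3.17, 3.65 and 4.08 on the ventral arrays. The arrays numbered 3 were the highest in both regions, and the groups overlapped. The log2 fold change was -0.15 ± 0.18, with an interval from -0.60 to 0.30. It turned to 0.08 without dorsal array 3 and to 0.08 without ventral array 1, both in fits without the block.

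**Figure D2:**
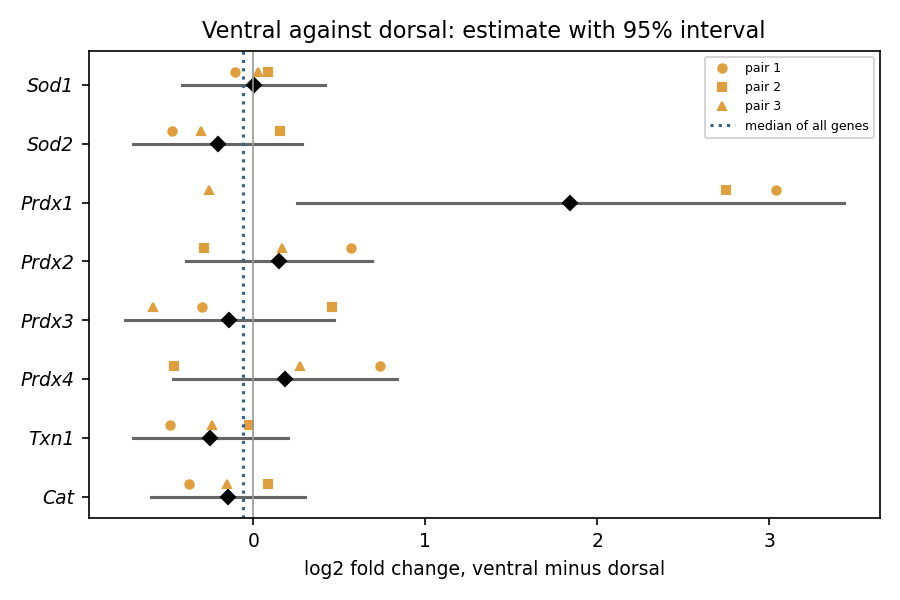
Log2 fold change, ventral minus dorsal (x axis), of each gene: diamonds are limma estimates, lines their 95% intervals, orange symbols the differences within the 3 same-numbered pairs and the dotted line the median of all genes (-0.06). Intervals are from the fit with the array number as a block, in which that of Prdx1 ran from 0.25 to 3.43; without the block it ran from -0.33 to 4.02.

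Across the 8 genes 4 had a higher ventral and 4 a higher dorsal mean, where 42.0% of all genes had a higher ventral mean. The median log2 fold change of the 8 was -0.07, against -0.06 over all 24675 genes. The 7 genes other than Prdx1 had values between -0.25 and 0.18. With the block, their 95% intervals together reached from -0.75 to 0.83, so differences of up to 1.78-fold were not resolved. Without the block the interval of Sod2 widened to -1.28 to 0.87 and that of Cat to -0.82 to 0.52, so larger differences were then unresolved. In limma, with Benjamini-Hochberg adjustment over all genes, 0 of the 8 genes had an adjusted p of 0.05 or less, where 0.0% of all genes did. At an unadjusted p under 0.05 there was 1 of 8, Prdx1, against 10.2% of all genes. This was 1 of 8 higher in ventral tissue, against 4.32%, and 0 of 8 higher in dorsal tissue, against 5.9%. Without the block there were 0 of 8, against 11.2%. No member had groups free of overlap, against 18.7% of all genes (6.74% with the ventral and 12.0% with the dorsal arrays higher). These counts describe genes listed with this contrast known and test nothing about them.

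The spread of Sod1, Sod2 and Cat followed the array number. When the sum of squares over the 6 arrays was divided between region, array number and remainder, the number took 92.1% for Sod1, 92.4% for Sod2 and 88.7% for Cat. A share at least as large was held by 1.51%, 1.41% and 2.54% of all genes, respectively, and the median over all genes was 32.6%. The median share was 20.1% for region and 32.9% for the remainder, so for a typical gene the number took no more than the remainder. Region splits the arrays into fewer groups than array number does, so the shares of region and number are not directly comparable. For Txn1 the region took the largest share, 55.4%, and for Prdx3 and Prdx4 the remainder did, with 69% and 83.6%. Prdx1 was divided into 34.7% for region, 42.6% for number and 22.7% for the remainder. The same array number was highest in both regions for 4 of 8 genes (Sod1, Sod2, Prdx1 and Cat), against 33.3% of all genes.

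**Figure D3:**
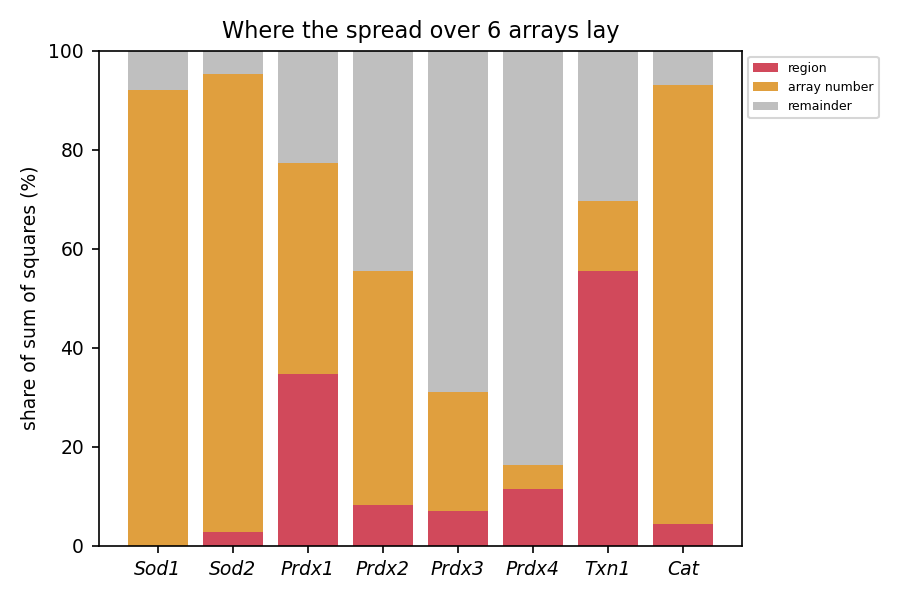
Share of each gene's sum of squares over 6 arrays (y axis, percent) that lay between regions, between array numbers and in the remainder. The array number took 88.7% to 92.4% for Sod1, Sod2 and Cat, and the region took its largest share, 55.4%, for Txn1. Region has fewer groups than array number, so their shares are not directly comparable.

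The summed signal of erythroid markers shared its lowest array, ventral 1, with Sod1 and Cat, and all had both arrays numbered 3 highest. Of 17 listed markers 12 were measured, and their summed signal on the linear scale ranged from 1860 to 7190 over the dorsal and from 609 to 10300 over the ventral arrays. Ventral array 1 was the lowest and both arrays numbered 3 were the highest. Sod1 and Cat had this partial order, as did 393 genes in all (1.59%), an order singled out after the values were seen. The other ranks differed. The sum was highest on ventral array 3, while Cat was highest on dorsal array 3. On dorsal arrays 1 and 2 the sum was 1960 and 1860, while Sod1 and Cat were lower on dorsal array 1 than on dorsal array 2. Sod2 did not have the partial order, with the arrays numbered 1 highest, nor did Prdx2, which was lowest on dorsal array 1.

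The embryonic globin Hba-x was at 9.41, 9.70 and 11.1 on the dorsal and at 7.08, 10.2 and 12.1 on the ventral arrays, and 4 of the 5 measured globins had that order. Over the whole list it was 4 of 12 markers, since none of the 7 markers other than globins had it, and the linear sum is carried by the globins. The globin without it was Hbb-bs, at 3.06, 3.42 and 4.80 in dorsal and 4.40, 4.94 and 5.85 in ventral tissue. The haem synthesis enzyme Alas2, between 3.23 and 3.81, and the membrane protein Epb42, between 2.56 and 3.28, stayed near the array medians. Slc25a37, the iron importer of red-cell mitochondria, was at 3.77, 3.37 and 3.41 in dorsal and 5.42, 4.45 and 6.09 in ventral tissue, with no overlap and a log2 fold change of 1.81 ± 0.32 (limma adjusted p 0.371). Klf1, an erythroid transcription factor, had 0.32 ± 0.21. The 2 markers with the highest mean went the other way, Hba-x with -0.29 ± 0.63 and the globin Hbb-bt with -0.56 ± 0.84. Of the 12 markers 6 had a positive and 6 a negative log2 fold change, with a median of 0.03. The list members that were not measured are not analysed here. The part of red cells in the signals of Sod1 and Cat was not tested.

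**Figure D4:**
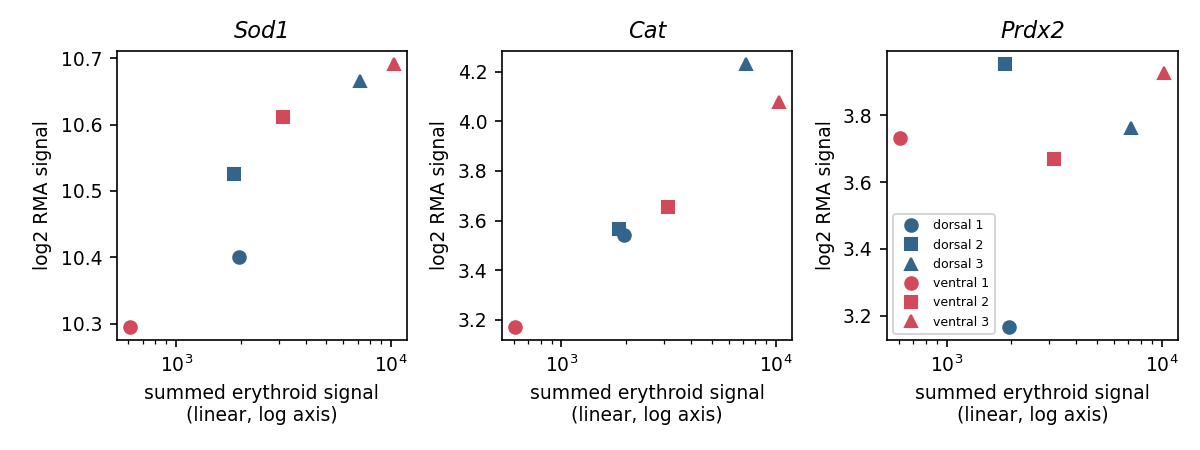
Log2 RMA signal (y axis, scaled separately per panel) of Sod1, Cat and Prdx2 against the summed linear signal of 12 erythroid markers on the same array (x axis, log scale). Ventral array 1 is lowest and both arrays numbered 3 are highest for Sod1 and Cat, over ranges of 0.40 and 1.06; Prdx2 does not have this order.

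The regions were checked against markers of the tissues they could hold. All 9 sclerotome markers had a lower ventral mean, where 42.0% of all genes had a higher one. Of the 9, 7 stayed under a signal of 5 on every array. Twist1 led in signal, with a dorsal mean of 6.52 and a ventral mean of 5.12. The summed linear signal of the 9 was 241 to 249 on the dorsal and 127 to 174 on the ventral arrays. Notochord markers had 1 of 7 positive log2 fold changes and a median of -0.20, with sums of 146 to 178 dorsal and 131 to 161 ventral. Macrophage markers had 4 of 7 positive and a median of 0.11, with sums of 141 to 154 and 138 to 204. Splanchnic and subaortic mesenchyme markers summed to 147 to 151 and 137 to 149, so that list did not mark the ventral side. The highest group mean was 4.11 among endothelial and 4.24 among blood stem cell markers, close to background. The liver is rich in catalase. Of its 7 markers 4 had a positive and 3 a negative log2 fold change, and no group mean was above 4.36. Apoa1 had -0.29 and Ttr 0.20, while Serpina1b, picked after its values were seen, was at 2.49, 2.48 and 3.67 in dorsal and 4.47, 4.16 and 4.44 in ventral tissue, a log2 fold change of 1.48 ± 0.27 (limma adjusted p 0.373). The part of liver cells in the signal of Cat was not tested.

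Beyond the members, 72 of 74 listed redox genes were measured, and none passed the limma test, where 0.0% of all genes did. Their means were higher in ventral tissue for 26 and in dorsal tissue for 46 genes, with a median log2 fold change of -0.11. Of all genes 42.0% had a higher ventral mean, with a median of -0.06, so most genes leaned to the dorsal side in the values as deposited. That lean depended on the processing, as the median of all genes was -0.005 after cyclic loess and -0.02 after median centring. The counts per list below are from the deposited values and are to be read beside the share of 42.0%. The lowest limma adjusted p was 0.378. At an unadjusted p under 0.05 there were 2 ventral-higher and 3 dorsal-higher genes, together 6.94%, against 10.2% of all genes. The groups were free of overlap in 7 genes (9.72%, against 18.7% of all genes), with Noxo1 higher in ventral and Gpx7, Glrx, Me1, Maff, Ftl1 and Rac2 higher in dorsal tissue. Of the 72 genes 61 stayed under a signal of 5 on every array.

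Genes that work directly with the superoxide dismutases and peroxiredoxins were mostly near background. Sod3, the extracellular dismutase, had a log2 fold change of 0.10 ± 0.17, and Ccs, which loads copper into Sod1, -0.24 ± 0.22, with ventral values of 2.60 to 2.82. Glutathione peroxidases remove the same peroxides at the expense of glutathione, and 2 of 8 had a positive and 6 a negative value. Gpx1, the cytosolic enzyme, was at 4.19, 3.14 and 4.81 in dorsal and 4.01, 4.81 and 5.43 in ventral tissue, a log2 fold change of 0.70 ± 0.36. Without the block it was 0.25 without dorsal array 2, 0.36 without ventral array 3, 1.08 without dorsal array 3 and 1.07 without ventral array 1. Gpx7, an enzyme of the endoplasmic reticulum, had -0.44 ± 0.19, and Gpx3, the plasma enzyme, 0.26 ± 0.20. Gpx8, also of the endoplasmic reticulum, was at 8.18 on dorsal array 2 and between 2.80 and 4.54 on the other 5 arrays, so its dorsal mean rests on that array.

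In the thioredoxin and glutaredoxin system 7 of 21 genes had a positive and 14 a negative log2 fold change, with a median of -0.13. Txnl1, a thioredoxin-like protein of the proteasome, was at 4.11, 3.90 and 6.63 on the dorsal and at 6.02, 5.77 and 7.00 on the ventral arrays. Dorsal arrays 1 and 2 were low and dorsal array 3 was not, which is the arrangement seen for Prdx1. The log2 fold change of Txnl1 was 1.39 ± 0.34 with a limma adjusted p of 0.435. In fits without the block it was 2.26 without dorsal array 3, 0.90 without dorsal array 2, 1.00 without dorsal array 1 and 1.01 without ventral array 3. Srxn1, the sulfiredoxin that repairs overoxidised peroxiredoxins, was at 3.92, 4.82 and 4.59 in dorsal and 3.66, 3.94 and 3.87 in ventral tissue, with -0.62 ± 0.20 and a limma adjusted p of 0.460. Glrx, a glutaredoxin, had -0.62 ± 0.26, and Txn2, the mitochondrial thioredoxin, -0.37 ± 0.21. Txndc17, a small thioredoxin-like protein, was at 4.08 on dorsal array 1 and at 5.51 to 6.93 on the others, with a difference of 0.08 ± 0.48.

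Glutathione synthesis and NADPH supply had 4 of 11 positive values and a median of -0.11. Me1, a malic enzyme that makes NADPH, was at 3.31, 2.96 and 4.27 in dorsal and 2.72, 2.79 and 2.41 in ventral tissue, a log2 fold change of -0.87 ± 0.34 with a limma adjusted p of 0.484, and -0.49 without dorsal array 3 in a fit without the block. Idh1, the cytosolic isocitrate dehydrogenase, had 0.45 ± 0.23, Chac1, which degrades glutathione, -0.39 ± 0.23, and Gclm, a subunit of the enzyme that starts glutathione synthesis, 0.10 ± 0.17.

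Control by Nrf2 and its targets had 7 of 16 positive values and a median of -0.04. Ftl1, the ferritin light chain, had the smallest p of the 72 genes. It was at 3.25, 2.88 and 3.65 in dorsal and 2.42, 2.05 and 2.63 in ventral tissue, a log2 fold change of -0.89 ± 0.17 with a limma adjusted p of 0.378. All its ventral values lay below the array medians. Fth1, the ferritin heavy chain, had -0.14 ± 0.27 at means of 7.03 and 6.88, and the glutathione transferase Gstm1 0.02 ± 0.17 at 5.73 and 5.75. Gsta4, which detoxifies lipid aldehydes, had -0.43 ± 0.26, and Maff, a small partner of Nrf2, -0.26 ± 0.17.

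NADPH oxidases and their subunits, which make superoxide, had 5 of 14 positive values and a median of -0.06. Noxo1, the organiser subunit of the Nox1 oxidase, was at 4.12, 3.70 and 3.62 in dorsal and 4.39, 4.44 and 4.34 in ventral tissue. The ventral arrays were all higher, with a log2 fold change of 0.58 ± 0.19 and a limma adjusted p of 0.460. Duoxa1, a maturation factor of the dual oxidases, had 0.57 ± 0.30, and Nox4, an oxidase of vessels and kidney, -0.54 ± 0.23. Rac2, a GTPase of the phagocyte oxidase, had -0.34 ± 0.18, and Noxa1, an activator subunit, -0.05 ± 0.17.

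**Figure D5:**
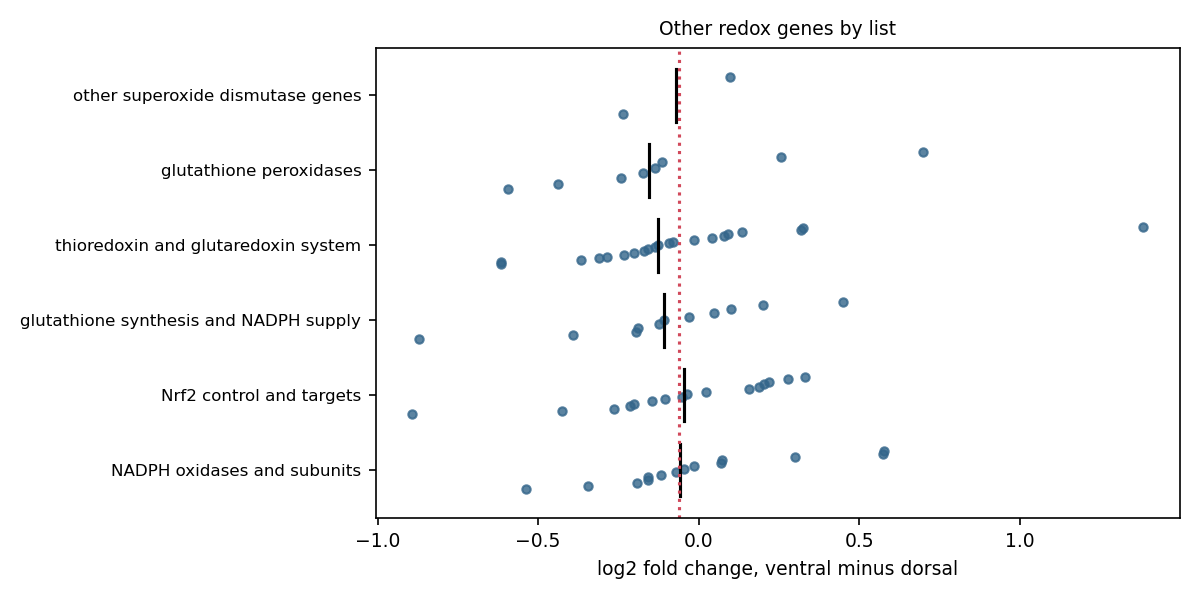
Log2 fold change, ventral minus dorsal (x axis), of 72 redox genes outside the member list, by gene list; points are genes, black bars list medians and the dotted line the median of all genes (-0.06). List medians lie between -0.16 and -0.04, and the point farthest to the right is Txnl1 at 1.39.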

How the data were processed

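The table deposited by the authors holds log2 values, 1 for each of 25429 probe sets on 6 arrays. Per the submitters' processing notes, these came from Affymetrix Expression Console with RMA, versions not given; the log base was taken from the values. The platform annotation gave 1 gene symbol for 24675 probe sets, and 754 were not listed in it. Array signal carries no read depth, and the number of arrays limits the precision.

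Regions were compared in limma 3.58.1 (R 4.3.3; lmFit, eBayes, two-sided, no filter), with the array number as a block because the labels say both regions came from the same embryos. The p-values cover only the spread among these arrays, which may be technical. Named are all members and, per pathway list and for erythroid markers, up to 3 genes with the smallest p and 2 with the highest mean; of other marker lists, 2 with the highest mean were eligible. Other genes named were chosen after their values were seen. Members and lists were chosen with earlier results of these data known. The fit was also run on simulated data as a self-test. The simulated shifts were a doubling or more, and no effect of array number was simulated. That run therefore does not bear on the block or on smaller differences. Alternatives were no block, cyclic loess, median centring, filters on dim genes, another eBayes setting and left-out arrays.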

Additional observations from a re-analysis of the deposited data

How the results depend on the processing

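The number of genes called by limma over all genes was 0 and moved to 1 without the replicate block. With the block it was 0 to 5 without both arrays of a number (5 without number 1, 2 without number 3), and without the block 0 to 3 when single arrays were left out: 3 without dorsal array 3, ventral array 1 or ventral array 2, and 1 without ventral array 3. It stayed at 0 under cyclic loess, median centring, both filters and the other eBayes setting, with 1164 to 2599 genes at an unadjusted p under 0.05. Of the genes at that level 42.2% were higher in ventral tissue, against 52.4% after cyclic loess, 53.5% after median centring and 57.7% among genes above the median of means. The pathway genes gave 0 calls under all 15 alternatives, with 2 to 8 at an unadjusted p under 0.05; the filters left 66 and 40 of the 72 genes to test.

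The members' median log2 fold change ranged from -0.15 to 0.07. Of 96 values for the members under 12 alternatives, 91 stayed within 1 SD of the pair differences, and 16 changed sign, 7 of them for Sod1 and 0 for Prdx1 and Txn1. For 30 named pathway and erythroid genes 346 of 360 values stayed within that SD and 25 changed sign. The SD was each gene's own, so genes with a wide spread could hardly leave it. Prdx1, with an SD of 1.82, counted as staying although its values ranged from 1.11 to 3.08. In this balanced design the fit on all arrays without the block gave the main estimates again, so those values could not move. The counts within the SD are therefore no measure of stability. Deviations from the group means correlated across genes at 0.04, -0.01 and 0.06 between arrays of equal number, so the data themselves do not show that the numbers pair the samples. Signals near the array medians limit what the dimmer members can show.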

Other observations

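The arrangement of Prdx1, with dorsal arrays 1 and 2 both at least 1.5 below the other 4 arrays on the log2 scale, was shared by 5 genes in all, a limit set after the values were seen. Besides Prdx1 and Txnl1 these were Rab4a, a small GTPase of recycling endosomes, Scarna9, a guide RNA of Cajal bodies, and Mir3064, a microRNA gene. Rab4a was at 2.13 and 3.68 on dorsal arrays 1 and 2, at 8.18 on dorsal array 3 and at 7.17, 9.83 and 9.95 on the ventral arrays. Scarna9 was at 2.30 and 2.47 on those dorsal arrays and at 8.88 to 10.8 on the other 4. Mir3064 was at 3.18 and 2.65 and at 10.1 to 11.5. Nothing is said by this of shared function or control.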
